A study of Mus musculus with 12 samples.

Results

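Expression of 10 genes of the MHC class I antigen presentation pathway was followed in cells sorted from the injured mouse spinal cord. The set was chosen by name for its function, but with earlier results of these data known. Shares of all genes beside its counts are therefore a description and no independent test. It holds the heavy chains H2-D1 and H2-K1, the light chain B2m, and the peptide transporter and its docking factor Tap1, Tap2 and Tapbp. The immunoproteasome subunits Psmb8, Psmb9 and Psmb10 and the transactivator Nlrc5 complete it. All 10 were found among the 16389 genes of the table, and all 10 passed the filter on low values that left 16388 genes for testing. The cells came from adult male Aldh1l1-EGFP mice, 12 weeks old at injury and kept on a Swiss Webster background, in which the Aldh1l1 promoter drives eGFP in astrocytes. All groups, controls included, carry this transgene. Fluorescence-activated sorting of eGFP+ cells was done on a segment of thoracic cord centered on the lesion, several mice were pooled, and polyA RNA was sequenced. The 5 groups were non-injured controls (NI, 3 libraries), lateral hemisection after 1 week (HS 1 week, 3 libraries) and 2 weeks (HS 2 weeks, 2 libraries), and full transection after 1 week (FT 1 week, 1 library) and 2 weeks (FT 2 weeks, 3 libraries).

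MHC class I molecules display peptides from inside the cell to CD8 T cells and natural killer cells. The proteasome cuts proteins into peptides, interferon can replace its constitutive catalytic subunits by immunoproteasome subunits, TAP1 and TAP2 carry the peptides into the endoplasmic reticulum, and tapasin holds the empty heavy chain and its light chain at the transporter until a peptide binds. NLRC5 acts in the nucleus as the transactivator of class I genes and is itself induced by interferon. Class I expression is low in most cells of the resting central nervous system, and glia can raise it under inflammation.

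The proximal promoters of the heavy and light chains are shown because they carry, side by side, the elements through which NF-kB, interferon regulatory factors and the NLRC5 enhanceosome are known to act. RefSeq windows of GRCm38.p6, running from 250 bases before to 50 after a gene's start, were at hand for 8 of the 10 genes, without Tap2 and Nlrc5. Capitals mark, from the 5′ end in H2-K1 and H2-D1, a kB-type element (GGGNNTTNCC), an interferon-stimulated response element on the other strand (GAANNGAAA), and the X2 box TGACG with the Y box ATTGG at a distance of 20 bases. In B2m they mark GAAANNGAAA, the kB-type element on the other strand, and the same X2 and Y boxes. The H2-K1 stretch is chr17:34000349-34000468 on the minus strand, that of H2-D1 is chr17:35262913-35263032 on the plus strand, and that of B2m is chr2:122147538-122147648 on the plus strand.
H2-K1: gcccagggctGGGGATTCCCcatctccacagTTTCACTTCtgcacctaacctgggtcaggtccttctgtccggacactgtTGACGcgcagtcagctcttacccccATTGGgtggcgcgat
H2-D1: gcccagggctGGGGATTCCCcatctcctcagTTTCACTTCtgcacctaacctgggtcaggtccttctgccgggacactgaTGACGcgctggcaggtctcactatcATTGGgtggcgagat
B2m: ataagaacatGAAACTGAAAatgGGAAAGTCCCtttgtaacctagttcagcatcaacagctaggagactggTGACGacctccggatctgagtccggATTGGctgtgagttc

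The H2-K1 and H2-D1 stretches were the same at 108 of 120 bases (90.0%). The motifs were spelled after these windows had been read, so their presence here is a description. The windows of Tap1, Tapbp, Psmb8, Psmb9 and Psmb10 held none of the marked motifs as spelled. With both strands searched, the X2 and Y boxes at this spacing occurred in 31 of 32851 promoter windows (0.0944%), which belonged to 27 genes. Of these 27 genes, 3 were class I heavy chains, H2-K1, H2-D1 and H2-M3. The kB-type element occurred in 4.79% of all windows, GAANNGAAA in 7.52% and GAAANNGAAA in 3.44%, and the last 2 forms differ in the length of their first repeat, GAA or GAAA.

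The 12 libraries held between 8270643 reads (FT 1 week) and 15562378 reads, and 1 read was worth 0.06117 to 0.1343 normalized counts, so that every member was counted well above single reads in all of them. Summed levels of 12 oligodendrocyte markers (55900 to 115100 normalized counts) exceeded those of 12 astrocyte markers (1468 to 12520, with 2874 in FT 1 week) in all 12 libraries, and the sorted fraction is therefore named here by its gate. Summed levels of 16 microglia and macrophage markers, cells in which class I genes are also expressed, ran from 989 to 9193 in NI, were 16560 in HS 1 week replicate 3, 16210 in HS 2 weeks replicate 1 and 13590 in FT 1 week, and were 1209 to 4573 in the other 6 injured libraries. The differences of these markers in each comparison are given beside those of the members. Only RNA was measured here, not protein at the cell surface.

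The classical heavy chain H2-D1 was higher than NI in every injured library, most in FT 1 week, and H2-K1 was higher in every HS 1 week and FT 1 week library. H2-D1 (chr17:35262730-35267499, plus strand) measured 122, 159 and 187 normalized counts in NI, 416, 336 and 945 in HS 1 week, 739 and 277 in HS 2 weeks, 1252 in FT 1 week, followed by 307, 354 and 256 in FT 2 weeks. All 9 injured libraries lay above all 3 NI libraries. The only other member with such a separation was Nlrc5, and 1.97% of all tested genes had it. Without NI replicate 3, B2m had it too. H2-K1 (chr17:33996017-34000347, minus strand) measured 39.9, 70.8 and 90.8 in NI, 134, 115 and 301 in HS 1 week, 329 and 47.2 in HS 2 weeks, 709 in FT 1 week, followed by 79.2, 56.4 and 59.2 in FT 2 weeks. Its HS 1 week and FT 1 week libraries lay above NI, HS 2 weeks replicate 2 lay within the NI range, and so did all 3 FT 2 weeks libraries. Fewer cells of a type and less RNA per cell cannot be told apart in such bulk samples.

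H2-D1 and H2-K1 are near copies, and the mice are not of the strain of the reference genome. Of all 50-base stretches of the H2-D1 transcripts in GENCODE, 13.9% also occur in transcripts of other genes, and 6.87% of those of H2-K1. Levels of these genes are therefore uncertain by the reads that alleles and copies share. In the other 8 members the share was between 0% and 3.5%.

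B2m (chr2:122147686-122153083, plus strand), the light chain common to all class I molecules, measured 487, 582 and 770 normalized counts in NI, 1175, 1016 and 1489 in HS 1 week, 2422 and 594 in HS 2 weeks, 3606 in FT 1 week, followed by 615, 917 and 1076 in FT 2 weeks. All HS 1 week libraries lay above NI, while HS 2 weeks replicate 2 and FT 2 weeks replicate 1 lay within its range. The mean of HS 1 week was 2.00 times that of NI and the FT 1 week library was 5.88 times the NI mean. The ratio of H2-D1 to B2m normalized counts was 0.242 to 0.274 in NI, 0.347 in FT 1 week, and above every NI library in all injured libraries but FT 2 weeks replicate 3 (0.238).

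The transporter genes were set apart by a single group. Tap1 (chr17:34187553-34197225, plus strand) measured 11.5, 12 and 17.5 in NI, 14.1, 16.7 and 33.6 in HS 1 week, 31.7 and 11.4 in HS 2 weeks, 181 in FT 1 week, followed by 11.8, 9.79 and 14.1 in FT 2 weeks. FT 1 week was 13.3 times the NI mean and 5.39 times the highest of the other 11 libraries, and the FT 2 weeks libraries did not differ from NI beyond their spread. Tap2 (chr17:34203527-34216321, plus strand) measured 31.6, 31.5 and 27.4 in NI, 22.3, 21.9 and 56.5 in HS 1 week, 37.9 and 26.0 in HS 2 weeks, 115 in FT 1 week, followed by 24.6, 24.2 and 18.9 in FT 2 weeks. Here all 3 FT 2 weeks libraries lay below all 3 NI libraries, but the difference did not pass the test (log2 difference -0.41, SE 0.33, adjusted p = 0.686 by limma-trend, a linear model fitted to every gene on a log scale). Tapbp (chr17:33915899-33929292, plus strand), which encodes tapasin, measured 87.7, 87.8 and 111 in NI, 96.6, 83.9 and 183 in HS 1 week, 207 and 89.9 in HS 2 weeks, 346 in FT 1 week, followed by 94.7, 93.3 and 88.7 in FT 2 weeks. All 3 FT 2 weeks libraries lay within the NI range of Tapbp.

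The immunoproteasome subunits were high in the FT 1 week library and overlapped NI in the other groups. Psmb8 (chr17:34197721-34201454, plus strand), which takes the place of Psmb5, measured 25.8, 20.6 and 43.8 in NI, 23.8, 13.5 and 51.3 in HS 1 week, 68.7 and 18.5 in HS 2 weeks, 231 in FT 1 week, followed by 21.3, 22.1 and 26.0 in FT 2 weeks. Psmb9 (chr17:34181987-34187764, minus strand), which takes the place of Psmb6, measured 11.7, 17.1 and 28.2 in NI, 8.97, 7.89 and 25.5 in HS 1 week, 24.8 and 9.38 in HS 2 weeks, 114 in FT 1 week, followed by 8.76, 11.1 and 16.6 in FT 2 weeks. Psmb10 (chr8:105935735-105938444, minus strand), which takes the place of Psmb7, measured 45.3, 43.0 and 57.7 in NI, 31.4, 43.9 and 45.6 in HS 1 week, 59.9 and 36.1 in HS 2 weeks, 142 in FT 1 week, followed by 32.1, 37.4 and 50.8 in FT 2 weeks. In HS 1 week the means of the 3 genes were 0.981, 0.743 and 0.829 times those of NI. The FT 1 week library was 7.69, 5.98 and 2.91 times the NI mean. Exons of Tap1 and Psmb9 overlap head to head by 212 bases on opposite strands, and since the library kits do not mark strand, reads from that stretch cannot be assigned to either gene. Antisense genes that are not in the table share 24.9% of the exon bases of Tapbp (Gm19412), 14.7% of those of Psmb8 (Gm20496) and 14.1% of those of Tap2 (Gm15821), so reads from these stretches are uncertain in the same way.

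Nlrc5 (chr8:94434356-94527272, plus strand) was low in level and higher than NI in every injured library. It measured 6.05, 6.19 and 8.42 in NI, 11.2, 12.8 and 15.6 in HS 1 week, 21.9 and 12.8 in HS 2 weeks, 49.3 in FT 1 week, followed by 8.98, 10.3 and 8.67 in FT 2 weeks. The lowest injured library, FT 2 weeks replicate 3, lay above the highest NI library by a small margin. The means of HS 1 week and HS 2 weeks were 1.91 and 2.52 times that of NI, and FT 1 week was 7.16 times the NI mean.

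**Figure D1:**
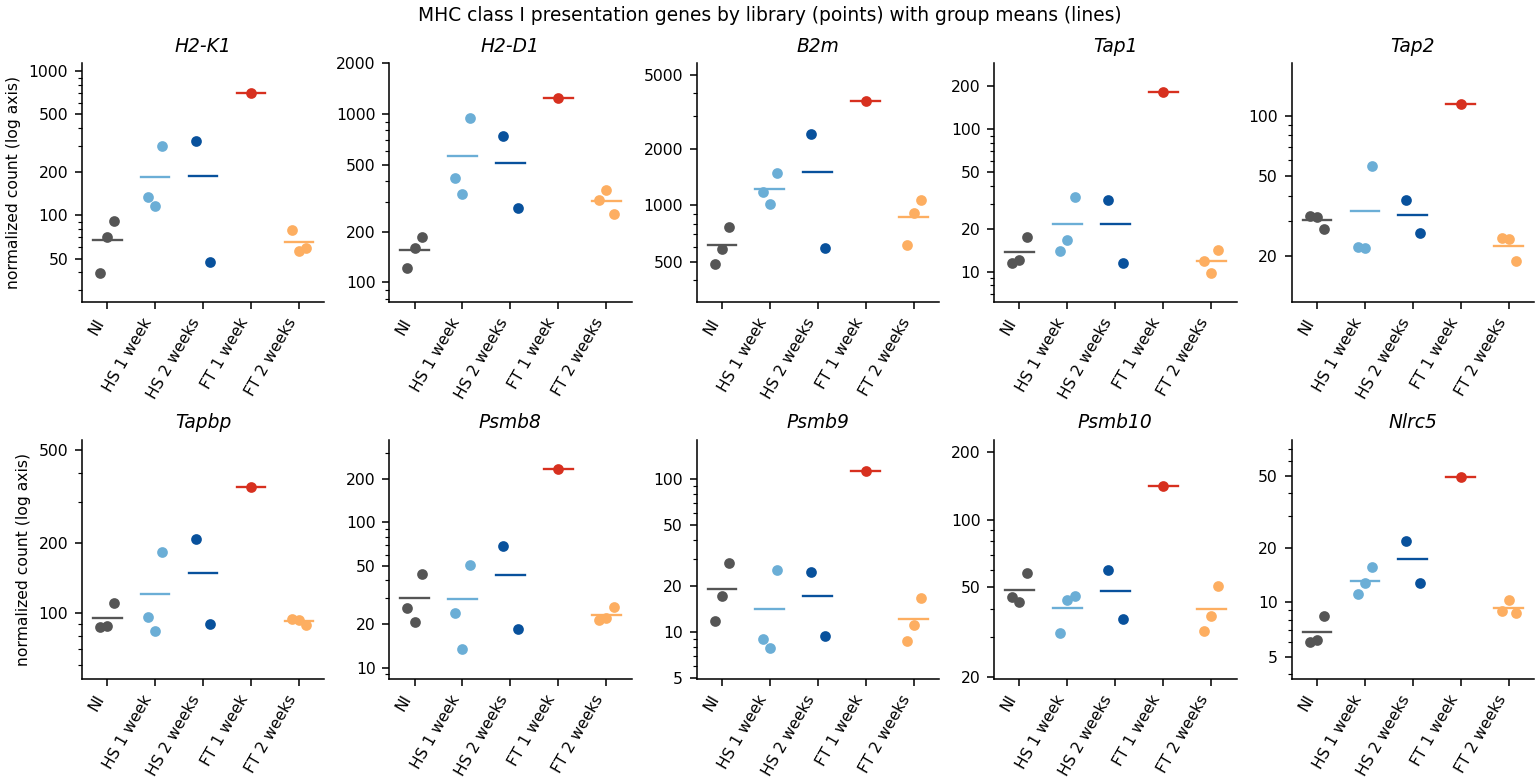
Normalized counts (log axes, one panel per gene) of the 10 class I genes in the 12 libraries, grouped by injury and time. Points are libraries and lines are group means. FT 1 week, with its single library, is the highest point of all 10 panels, while H2-D1 and Nlrc5 are the panels in which every injured library lies above NI.

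The FT 1 week library was the highest of all 12 for all 10 genes, by 1.32-fold (H2-D1) to 5.39-fold (Tap1) over the next. Among all tested genes 7.98% were highest in that library. Against NI, the median difference of the members was 2.64 on the log2 scale, beside -0.02 for all tested genes. By limma-trend, with genes counted as differentially expressed (DE) when they changed 2-fold or more at an adjusted p under 0.05, 2 members passed, where 0.372% of all tested genes were DE and higher. Nlrc5 was up-regulated (log2 difference 2.69, SE 0.36, adjusted p = 0.00723) and so was Tap1 (3.66, SE 0.56, adjusted p = 0.0172). The other 8 had log2 differences of 1.53 (Psmb10) to 3.46 (H2-K1) and adjusted p-values of 0.0637 (H2-D1) to 0.171 (Psmb9). The unadjusted p was under 0.05 for all 10, against 11.2% of all genes. By the likelihood ratio test of edgeR, the kind of model the study used, all 10 were DE and higher, and 1.14% of all genes were. All 10 were also DE and higher in DESeq2 (1.03% of all genes) and with array quality weights in limma-trend (2% of all genes). Both tests take the spread of the lone FT 1 week library from the other groups. Without NI replicate 2, Tap1 no longer passed in limma-trend (3.59, adjusted p = 0.0615), and in a fit of FT 1 week and NI alone neither gene did (adjusted p = 0.182 for Nlrc5 and 0.104 for Tap1). The number of members called was 4 without HS 1 week replicate 3, which enters this comparison through the shared spread. All tested genes called in either direction rose there too, from 74 in the full fit to 130.

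After hemisection the larger differences from NI were those of the heavy chains, B2m and Nlrc5. At HS 1 week no member passed in limma-trend (0.0061% of all genes were DE and higher), while 4 had an unadjusted p under 0.05, against 7.66% of all genes. H2-D1 was higher by 1.72 on the log2 scale (SE 0.42, adjusted p = 0.381), and this gene alone passed in the likelihood ratio test (1.86, adjusted p = 0.0232, where 0.299% of all genes were DE and higher) and in DESeq2 (adjusted p = 0.00974, with 0.415% of all genes). H2-K1, B2m and Nlrc5 had log2 differences of 1.38, 1.01 and 0.85. All HS 1 week libraries lay above NI for these 4 genes, against 7.31% of all genes. Tap1, Tap2, Tapbp and the 3 immunoproteasome subunits had log2 differences of -0.51 to 0.54.

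At HS 2 weeks no member passed in limma-trend (0.0122% of all genes were DE and higher) or in the likelihood ratio test (0.421%). An unadjusted p under 0.05 was seen for 2 members, H2-D1 (1.55, SE 0.47) and Nlrc5 (1.19, SE 0.29), against 7.49% of all genes. DESeq2 called Nlrc5 (1.35, adjusted p = 0.0122, with 0.433% of all genes). These 2 genes were also the members with both libraries above NI, which 12.9% of all genes had. The pair of libraries differed widely, with replicate 1 above replicate 2 for all 10 genes. Without replicate 1 the log2 difference of H2-K1 turned from 0.97 to -0.42, and that of B2m from 0.99 to -0.02, and those of Tap1, Tap2, Tapbp and Psmb8 also fell below 0.

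At FT 2 weeks H2-D1 had the largest difference from NI among the members. Its mean was 1.96 times that of NI (log2 difference 0.98, SE 0.42, adjusted p = 0.448). No member was DE in limma-trend (0.0305% of all genes were DE and higher), in the likelihood ratio test (0.47%) or in DESeq2 (0.586%). H2-D1 was the single member of the 10 with an unadjusted p under 0.05, against 10.8% of all genes, a similar share. H2-D1 and Nlrc5 had all 3 libraries above NI, against 6.92% of all genes. The other 8 genes had log2 differences of -0.57 (Psmb9) to 0.49 (B2m), and the median of all 10 members was -0.11, beside -0.01 for all tested genes. The 4 comparisons share the same NI libraries.

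**Figure D2:**
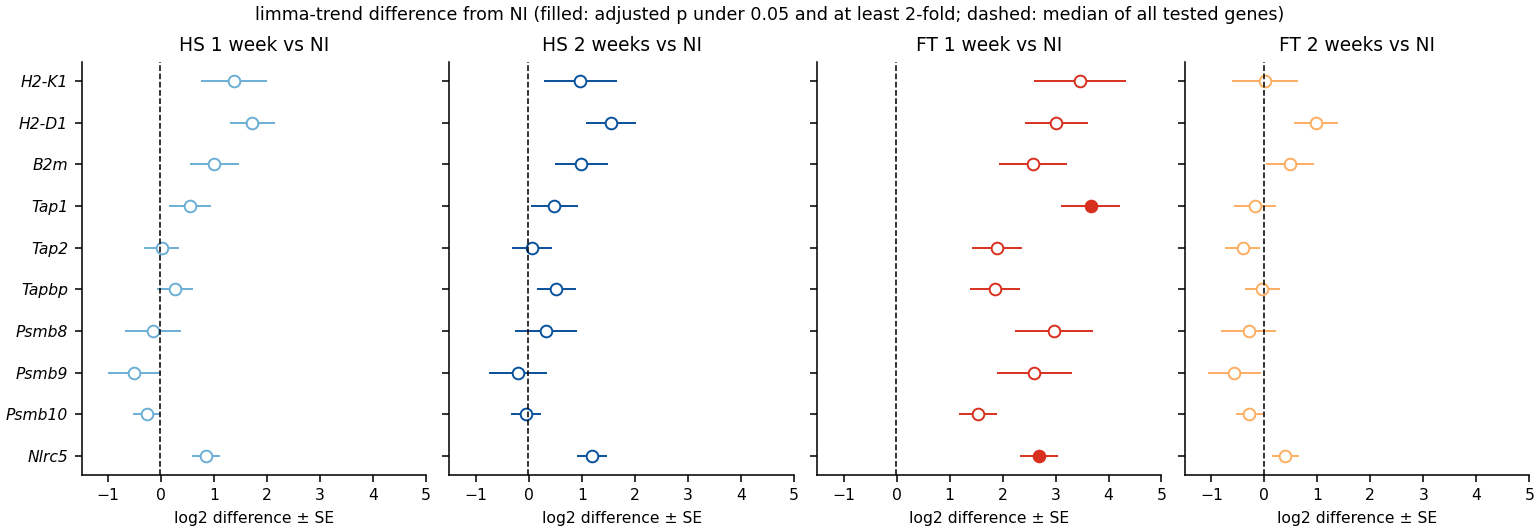
Log2 difference from NI with its standard error (limma-trend, horizontal axis) for each of the 10 genes (vertical axis) in the 4 injured groups. Filled points passed an adjusted p of 0.05 with a change of at least 2-fold, open points did not, and dashed lines are the median of all tested genes. In FT 1 week all 10 genes lie between 1.53 and 3.66, whereas in both HS groups H2-D1 lies to the right of Tap2 and of the 3 Psmb genes.

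Full transection and hemisection were then compared at the same time. At 1 week all 10 members were higher in FT, by 1.30 (H2-D1) to 3.13 (Psmb8) on the log2 scale. None passed in limma-trend (0.287% of all genes were DE and higher), and the nearest was Tap1 (3.12, SE 0.56, adjusted p = 0.0546). An unadjusted p under 0.05 was seen for 9 members, against 5.64% of all genes. The likelihood ratio test called 5, namely Tap1, Psmb8, Psmb9, Psmb10 and Nlrc5, where 0.513% of all genes were DE and higher. H2-D1 had an adjusted p of 0.866 there. Limma-trend called 4 members without HS 1 week replicate 3, the library with the highest microglia and macrophage markers. All tested genes called in either direction went from 57 in the full fit to 81 there. The 16 microglia and macrophage markers were also all higher in FT at 1 week (median 1.49 on the log2 scale, beside 1.86 for the members), and 11 of 12 astrocyte markers were lower (median -1.37). With the summed microglia and macrophage markers as a covariate in limma-trend, the members' differences were 0.78 (H2-D1) to 2.69 (Tap1), and the same 5 genes were DE and higher as in the likelihood ratio test, with 0.525% of all genes. At 2 weeks all 10 differences were below 0 (-0.95 to -0.24). All 16 microglia and macrophage markers were below 0 as well (median -1.47) and all 12 astrocyte markers above it (median 1.34). With the covariate the members' differences at 2 weeks were -0.64 (Nlrc5) to 0.17 (Psmb9), with that of H2-K1 at -0.30. None was DE by limma-trend (0% of all genes were DE and lower) or by the likelihood ratio test. Without the covariate, Nlrc5 was the single member with an unadjusted p under 0.05 in limma-trend, against 2.26% of all genes.

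Between 1 and 2 weeks after FT all 10 members were lower at the later time, by 1.82 (Psmb10) to 3.83 (Tap1) on the log2 scale. Nlrc5 (-2.29, SE 0.36, adjusted p = 0.023) and Tap1 (-3.83, SE 0.56, adjusted p = 0.0145) were down-regulated in limma-trend, where 0.281% of all genes were DE and lower. The likelihood ratio test called all 10 lower, and 0.958% of all genes. No member passed in limma-trend without FT 2 weeks replicate 1 or without replicate 2, 1 passed without replicate 3, and 4 passed without HS 1 week replicate 3. All tested genes called in either direction were 63 in the full fit and, in the order of these settings, 38, 36, 44 and 93. The 16 microglia and macrophage markers were all lower at the later time too, with a median of -2.56 beside -2.30 for the members, and all 12 astrocyte markers were higher (median 2.39). With the covariate the members' differences were -3.19 (Tap1) to -1.26 (H2-D1), and 3 of them, Tap1, Nlrc5 and Psmb9, were DE and lower, with 0.36% of all genes. Between 1 and 2 weeks after HS the differences ran from -0.41 to 0.48, with 0 members at an unadjusted p under 0.05, against 1.62% of all genes. There, 0 members were DE in limma-trend (0% of all genes were DE and higher) or in the likelihood ratio test. The interaction of time and severity, which asks whether FT and HS changed differently between the weeks, was below 0 for all 10. Nlrc5 had the lowest adjusted p in limma-trend (-2.63, SE 0.46, adjusted p = 0.0767, with 0.0671% of all genes DE and lower). The likelihood ratio test called 6 members in it (H2-K1, Tap1, Psmb8, Psmb9, Psmb10 and Nlrc5), where 0.506% of all genes were DE and lower. Limma-trend called 2 members without HS 1 week replicate 3, with 38 of all tested genes called in either direction, against 14 in the full fit. The interaction was below 0 for all 16 microglia and macrophage markers (median -2.94, beside -2.49 for the members) and above 0 for all 12 astrocyte markers (median 2.85). With the covariate it was -2.99 (Tap1) to -0.93 (H2-D1), that of H2-K1 went from -3.03 to -1.60, and no member was DE (0.171% of all genes were DE and lower). All of these tests rest on the same FT 1 week library.

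Ratios within a library, which do not depend on its scaling, set genes of the pathway beside each other. They are ratios of RNA in a bulk sample, in which both genes need not come from the same cells. Psmb8 to Psmb5 was 3.66 in FT 1 week against 0.13 to 1.08 in the other 11 libraries, Psmb9 to Psmb6 was 0.363 against 0.0181 to 0.101, and Psmb10 to Psmb7 was 0.935 against 0.259 to 0.569. Psmb5 itself measured 84.6, 62.4 and 76.9 normalized counts in NI and 63.3 in FT 1 week, and Psmb6 measured 380, 241 and 302 in NI and 313 in FT 1 week. Psmb7 measured 159, 113 and 126 in NI and 151 in FT 1 week, so all 3 denominators lay within the NI range. The ratio of H2-D1 to Tap1 separated the groups in another way. It was 10.7, 13.3 and 10.7 in NI and 18.2 to 36.2 in all 8 libraries of HS and FT 2 weeks, while in FT 1 week it was 6.9, below NI. H2-D1 to H2-K1 was 2.06 to 3.06 in NI, 2.93 to 3.14 in HS 1 week, 2.25 and 5.88 in HS 2 weeks, 1.77 in FT 1 week, followed by 3.88 to 6.29 in FT 2 weeks. Reads shared between these near copies make their ratio uncertain. These ratios were chosen after the counts had been seen and are given without a test.

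**Figure D3:**
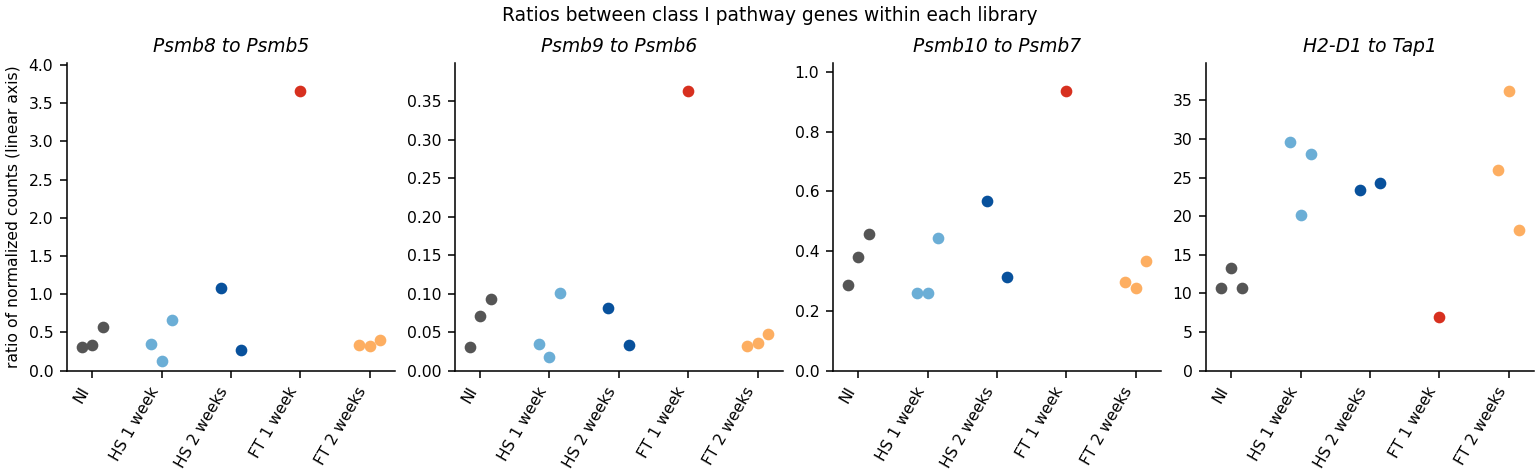
Ratios of normalized counts (linear axes from 0) between each immunoproteasome subunit and the constitutive subunit whose place it takes, and between H2-D1 and Tap1, with one point per library. FT 1 week is the highest point of the 3 proteasome panels and the lowest of the H2-D1 to Tap1 panel (6.9).

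Microglia and macrophage transcripts moved with part of these results. The 2 HS libraries with the highest marker sums, HS 1 week replicate 3 and HS 2 weeks replicate 1, were the 2 highest libraries of HS for all 10 members. The FT 1 week library had a lower marker sum (13590) than either and higher counts of all 10. Of the 16 markers, 14 had a positive difference between FT 1 week and NI, with a median of 1.72 on the log2 scale, and none of the 16 was DE there in either test. The median difference of the 16 from NI was 0.11 at HS 1 week, 0.87 at HS 2 weeks and -0.67 at FT 2 weeks. HS 1 week replicate 2 had a sum of 1209, near the 989 of NI replicate 1, with 336 against 122 normalized counts of H2-D1 and 115 against 39.9 of H2-K1, but 13.5 against 25.8 of Psmb8. Each of these is a single library, and they were not alike in other cell types. Astrocyte markers summed to 12520 against 6709, and pericyte and fibroblast markers to 1746 against 6698. With the marker level as a covariate in limma-trend, all 10 members were DE and higher at FT 1 week, where 1.56% of all genes were, while their differences became smaller. That of H2-K1 went from 3.46 to 2.60, that of Psmb9 from 2.60 to 1.91, that of Psmb8 from 2.97 to 2.29 and that of H2-D1 from 3.02 to 2.45. H2-D1 was the single member DE and higher in the other injured groups (log2 differences 1.67 at HS 1 week, 1.34 at HS 2 weeks and 1.19 at FT 2 weeks, with adjusted p-values of 0.0098, 0.0394 and 0.0396, where 0.415%, 0.421% and 0.543% of all genes were). Markers of T and NK cells, of which 10 of 14 were in the table, summed to 14.8 to 90.3 in NI, 5.99 to 32.8 in HS, 46.2 in FT 1 week, followed by 7.82 to 14.8 in FT 2 weeks. Cd3e was at 0.94 normalized counts in FT 1 week, and Klrk1, an activating receptor of these cells, accounted for 22.6 of the 46.2 there. Klrk1 measured 0.71 to 1.66 in NI and did not exceed 1.66 in any library but FT 1 week. Of the 10 markers, 6 had a positive difference between FT 1 week and NI, and the 10 ran from -2.57 to 3.54 on the log2 scale. Among them 1 was DE and higher there, in limma-trend (0.372% of all genes) and in the likelihood ratio test (1.14%). The part of each cell type in the members' levels was not tested further.

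**Figure D4:**
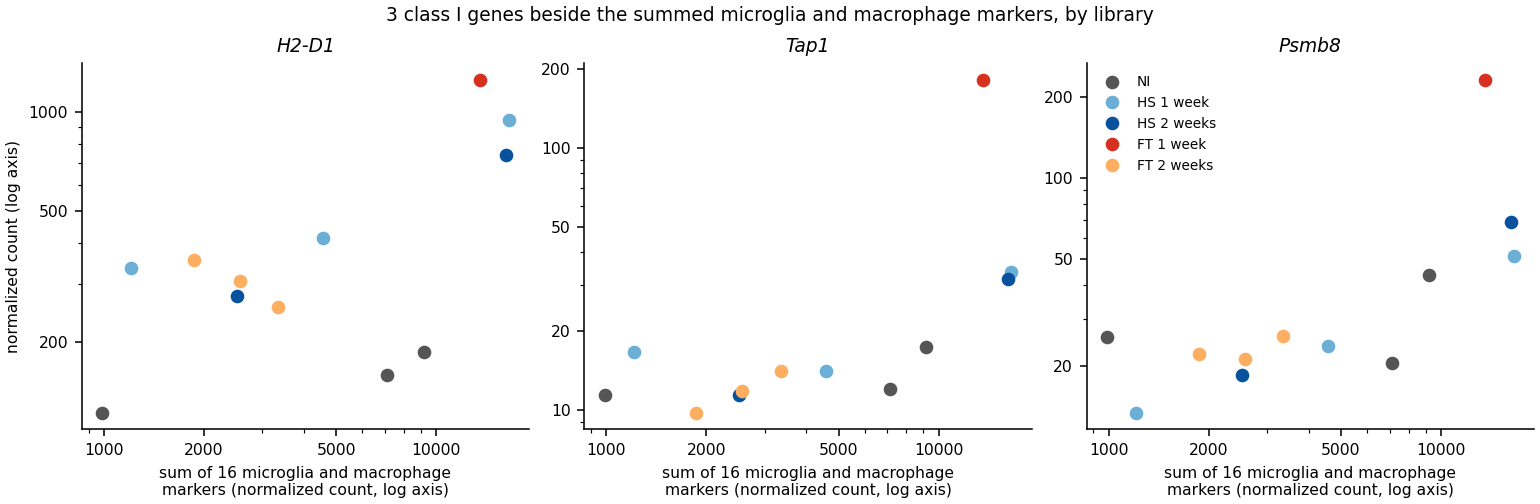
Normalized counts of H2-D1, Tap1 and Psmb8 (vertical log axes) beside the sum of 16 microglia and macrophage markers (horizontal log axes), one point per library. H2-D1 lies above NI in every injured library, whereas Tap1 and Psmb8 stand apart from the other libraries in FT 1 week alone. NI ends at a marker sum of 9193. No NI library therefore stands beside HS 1 week replicate 3, HS 2 weeks replicate 1 and FT 1 week (13590 to 16560).

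The rest of the pathway was read from gene lists. Of 13 measured non-classical and other heavy chains, none was DE against NI in limma-trend, and at FT 1 week the likelihood ratio test called 4 higher (H2-T23, H2-Q2, H2-Q4 and H2-Bl), beside 1.14% of all genes, the share that also stands beside the other counts by this test at FT 1 week below. H2-T23, which encodes Qa-1, a ligand of NK cell receptors, measured 16.6, 34.4 and 50.2 normalized counts in NI, 14.5 to 134 in HS, 428 in FT 1 week, followed by 22.5 to 36.0 in FT 2 weeks (log2 difference 3.76 at FT 1 week, SE 0.98, adjusted p = 0.158 in limma-trend). H2-Q2 measured 4.01 to 8.49 in NI, 13.0 to 55.1 in HS, 87.7 in FT 1 week, followed by 3.93 to 18.3 in FT 2 weeks, and the likelihood ratio test also called it at HS 1 week (2.25, adjusted p = 0.041). H2-M3, which shares the X2 and Y boxes, was not DE at FT 1 week in either test (1.73, SE 0.85). Of 9 loading and trimming partners, the likelihood ratio test called Tapbpl (1.88, SE 0.45, adjusted p = 0.13 in limma-trend), a peptide editor related to tapasin, at FT 1 week, and Erap1, which trims peptides in the endoplasmic reticulum, measured 13.0 to 21.4 in NI and 52.1 in FT 1 week (1.61, SE 0.48).

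The constitutive proteasome core was measured in full. None of its 14 genes was DE in any comparison by either test, and at FT 1 week their log2 differences ran from -0.22 (Psmb5) to 0.32 (Psma7), with Psma5 at 0.31, Psmb6 at 0.05 and Psmb7 at 0.20. Of the 9 activator and assembly genes, the likelihood ratio test called 1 at FT 1 week, Psme1, a subunit of the interferon-inducible PA28 cap. Psme1 measured 42.1 to 82.5 in NI and 249 in FT 1 week (2.00, SE 0.57, adjusted p = 0.2 in limma-trend), and its partner Psme2 measured 93.6 to 127 in NI and 278 in FT 1 week (1.35, SE 0.30, adjusted p = 0.104).

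Genes of interferon signalling and class I or class II transcription were read as another list, of receptors, kinases and transcription factors. Of its 24 genes, limma-trend called 2 higher at FT 1 week (0.372% of all genes) and the likelihood ratio test 5 (Irf1, Irf7, Irf9, Stat2 and Ciita, beside 1.14% of all genes), all 5 of them transcription regulators. Irf7, a factor induced by type I interferon, rose by 3.64 (SE 0.57, adjusted p = 0.0203), and Stat2, a factor of the type I response, by 2.11 (SE 0.34, adjusted p = 0.022). In both genes, as in H2-D1 and Nlrc5, every injured library lay above every NI library. The likelihood ratio test, unlike limma-trend, called Irf7 higher in the other injured groups too. Its log2 differences were 2.60 at HS 1 week (adjusted p = 6.22e-06), 2.14 at HS 2 weeks (0.00207) and 1.47 at FT 2 weeks (0.0328). The shares of all genes DE and higher there were 0.299%, 0.421% and 0.47%. Of a list of 6 cytokine genes, 5 of them interferons, 2 were in the table. Ifnb1, the interferon among them (0 to 5.14 normalized counts in the 12 libraries, 2.55 in FT 1 week), and Tnf, which encodes tumour necrosis factor (4.08 to 66.8, 17.3 in FT 1 week), were not DE in any comparison.

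The genes most alike to the members over the 12 libraries were sought by their correlation with the mean standardized log2 level of the 10. They were Zbp1 (r = 0.975), Ifi35 (0.971), Gpr35 (0.961), Cd274 (0.953), H2-T23 (0.949), Parp9 (0.947), Dtx3l (0.945) and Cd72 (0.943). Over the 11 libraries other than FT 1 week the values were 0.842 (Cd274) to 0.987 (Gpr35). All points share library, depth and cell composition, and the genes were picked as the best of the whole table. Zbp1, a sensor of Z-form nucleic acids, measured 1.34 to 3.1 normalized counts in NI and 58.6 in FT 1 week, and Cd274, which encodes the T cell inhibitory ligand PD-L1, measured 2.44 to 7.21 in NI and 115 in FT 1 week. Among the members themselves, r over the 11 libraries without FT 1 week was 0.921 for H2-K1 and Tap1, 0.897 for H2-D1 and Nlrc5 and 0.901 for Tapbp and Psmb8, but 0.03 for H2-D1 and Psmb10 and 0.181 for Nlrc5 and Psmb10.

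Levels between genes were compared per kilobase of exon. In NI, B2m stood at 713 ± 168 normalized counts per kilobase (SD, n = 3), H2-D1 at 60.5 ± 12.5, Psmb10 at 28.5 ± 4.63, Tapbp at 26.3 ± 3.7 and H2-K1 at 22.9 ± 8.72, and the last 3 of these did not differ beyond their spread. Below them followed Psmb8 (8.9 ± 3.61), Tap2 (7.98 ± 0.643), Psmb9 (5.19 ± 2.3), Tap1 (2.49 ± 0.609) and Nlrc5 (0.811 ± 0.157), of which Psmb8 overlapped Tap2 and Tap2 overlapped Psmb9. In FT 1 week the order became B2m (4193), H2-D1 (485), H2-K1 (241), Tapbp (95.4), Psmb10 (83.0), Psmb8 (68.4), Tap1 (33.1), Psmb9 (31.0), Tap2 (30.3) and Nlrc5 (5.8). Tap1, at less than Tap2 per kilobase in each NI library, stood above it in FT 1 week, by a margin that depends on this choice of length.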

How the data were processed

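RNA-seq of eGFP+ cells was analysed in 12 libraries of pooled mice, grouped by the injury and time of their labels. The kits were SMARTer Ultra Low and Nextera, which do not mark strand. TopHat2 2.0.9 (mapping, mm10 or GRCm38), HTSeq 0.5.4p3 (counting per gene) and edgeR 3.3.6 (normalization by library size, after removal of the lowest genes) were used by the authors, per the labels and the study's methods. What was deposited is a signal, the read count of a gene over a factor common to its library, here named normalized count. Dividing by the value of 1 read returned whole reads for 100% of values within 1e-06, 8270643 to 15562378 per library.

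Normalized counts were put on a log2 scale after adding 1 and fitted by limma-trend (limma 3.58.1, R 4.3.3) in 1 model of 5 groups. It held 16388 genes whose mean reached 0.5 in 1 group or more, with Benjamini and Hochberg adjustment over all of them (7 residual and 3.687 prior degrees of freedom). The recovered reads were tested with edgeR 4.0.16 (quasi-likelihood and likelihood ratio tests) and DESeq2 1.42.0. The model was also run on simulated counts, drawn around a common mean per gene with changes set in some genes. These counts held no differences in cell composition between libraries, so they cannot show how the model behaves under such differences. Other alternatives were a filter of 5 or none, pseudocounts of 0.25 and 4, median ratio scaling, the adjusted p alone, the compared groups alone, array weights, a microglia marker covariate, a replicate block and each replicate left out. Positions are those of GENCODE M21 on GRCm38. The members and lists were chosen with earlier results of these data known. All 10 members are named. Of each other list the genes called against NI by limma-trend are named, otherwise the 2 with the largest change at FT 1 week, with Psmb5, Psmb6 and Psmb7. One gene of the transcription factor list is not reported here. H2-Q4, H2-Bl and H2-M3 were named after their values were seen. P-values measure the spread between these libraries.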

Additional observations from a re-analysis of the deposited data

Results flagged for a closer look

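The effects of full transection and hemisection at 1 week differed in the edgeR likelihood ratio test for 5 genes, all higher in FT. Their log2 differences were 3.07 for Tap1 (adjusted p = 6.63e-06), 3.001 for Psmb9, 2.97 for Psmb8, 1.90 for Nlrc5 and 1.81 for Psmb10. None of them passed in limma-trend on the same libraries, where the adjusted p-values were 0.0546 for Tap1, 0.165 for Psmb9, 0.209 for Psmb8, 0.0827 for Nlrc5 and 0.09 for Psmb10. The FT 1 week library exceeded all 3 HS 1 week libraries for these 5 genes.

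The change from 1 to 2 weeks differed between FT and HS in the likelihood ratio test of the interaction for 6 genes, with log2 values of -3.93 for Tap1 (adjusted p = 4.06e-05), -3.88 for Psmb8, -3.49 for Psmb9, -3.49 for H2-K1, -2.80 for Nlrc5 and -2.07 for Psmb10. None passed in limma-trend, where the lowest adjusted p was that of Nlrc5 (0.0767). HS 2 weeks rests on 2 libraries that differ widely, and the FT 1 week value on 1 library.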

How the results depend on the processing

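Counts of members called are given in the order of the tests. At FT 1 week against NI, limma-trend called 2, the fit of those groups alone called 0, and array quality weights, the microglia marker covariate, the likelihood ratio test and DESeq2 called 10. Leaving out 1 replicate gave 1 to 5. At HS 1 week against NI the count was 0 in limma-trend and 1 with array weights, with the covariate, in the likelihood ratio test and in DESeq2. At HS 2 weeks it was 0, and 1 with the covariate and in DESeq2. At FT 2 weeks it was 0, and 1 with the covariate. For FT against HS at 1 week it was 0, and 2 with a pseudocount of 4, 7 with array weights, 5 with the covariate, in the likelihood ratio test and in DESeq2, and 0 to 4 with 1 replicate left out. For 2 weeks against 1 week after FT it was 2, and 10 in the compared groups alone, 9 with array weights, 10 in the likelihood ratio test, 8 in DESeq2 and 0 to 4 with 1 replicate left out. For the interaction it was 0, and 1 with a pseudocount of 4, 6 with array weights, 6 in the likelihood ratio test, 5 in DESeq2 and 0 to 2 with 1 replicate left out. Another setting, chosen after the marker sums were seen, left out HS 1 week replicate 3 and HS 2 weeks replicate 1. It left HS 2 weeks without replicates, so its counts of members are not given. The number of all tested genes called moved as well. At FT 1 week it was 74 in limma-trend, 928 with array weights, 813 with the covariate, 297 in the likelihood ratio test and 370 in DESeq2, and at HS 1 week it was 1 and, with array weights, 1267. For FT against HS at 1 week it was 57 and 114 to 227 in these 4 settings, for 2 weeks against 1 week after FT 63 and, in the compared groups alone, 1575, and for the interaction 14 and 33 to 117. The quasi-likelihood test gave the same counts of members as limma-trend. Of all tested genes it called 70 at FT 1 week, 37 for FT against HS at 1 week, 40 for 2 weeks against 1 week after FT and 9 for the interaction. The cause of the differences between tests was not tested.

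No member changed direction at FT 1 week against NI, and changes of direction elsewhere were of differences that had not passed. The log2 difference of Tap2 at HS 1 week (0.01) became -0.32 with array weights, -0.018 with the covariate, -0.43 without the 2 libraries named above, and -0.43 to 0.24 with 1 replicate left out. That of Tapbp (0.26) became -0.075 without the 2 libraries and -0.075 to 0.48 with 1 left out, and that of Psmb8 (-0.16) was -0.65 to 0.28 with 1 left out. At HS 2 weeks, leaving out the 2 libraries gave -0.42 for H2-K1, -0.021 for B2m, -0.21 for Tap1, -0.20 for Tap2, -0.078 for Tapbp and -0.60 for Psmb8, and the covariate gave -0.049 for Tap2. With 1 replicate left out, the ranges there were -0.42 to 2.35 for H2-K1, -0.021 to 2.01 for B2m, -0.21 to 1.18 for Tap1, -0.20 to 0.32 for Tap2, -0.078 to 1.12 for Tapbp, -0.60 to 1.24 for Psmb8, -0.86 to 0.45 for Psmb9 and -0.41 to 0.31 for Psmb10. At FT 2 weeks H2-K1 (0.01) was -0.18 with array weights, -0.048 in both edgeR tests, -0.025 in DESeq2 and -0.32 to 0.27 with 1 replicate left out. With the covariate Tap1 was 0.0051 and Tapbp 0.12, and with 1 replicate left out Tap1 was -0.29 to 0.0054, Tapbp -0.098 to 0.070 and Psmb8 -0.53 to 0.0012.

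Deviations from the group means correlated at r of -0.48 to 0.72 over 15 pairs of same-numbered libraries of different groups. For differently numbered libraries r was -0.725 to 0.667. These spans are alike and cannot show whether the numbers pair the samples, and the main model used no pairing. A replicate block, fitted without FT 1 week, called 0 members in the 5 comparisons it could be fitted for, and gave 0.14 for Psmb9 and 0.083 for Psmb10 at HS 2 weeks. Of the values of single members under alternatives in the 4 comparisons with NI, 883 kept their direction and side of the threshold, 54 newly passed it, 3 no longer did and 40 changed direction. The lone FT 1 week library limits every comparison with it.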
